A study of Homo sapiens with 60 samples.

Results

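The metallothioneins are small, cysteine-rich proteins, and 8 of their genes (MT2A, MT1E, MT1F, MT1G, MT1A, MT1M, MT1X and MT3) were followed together with MTF1, the transcription factor that switches several of them on when metal rises. The 9 genes were taken by name from a table of 37334 genes. Of these 9, 5 were abundant enough to read (MT2A, MT1F, MT1X, MT1E and MTF1) and 4 were too low (MT1G, MT1A, MT1M and MT3). With 10 µM lead (Pb), the 4 readable metallothioneins rose and MTF1 itself did not change detectably.

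Metallothioneins bind zinc and copper under ordinary conditions and also bind toxic metals such as cadmium and lead through the sulphur of their cysteines. MTF1 senses free zinc with its zinc fingers, moves to the nucleus and binds metal response elements, short DNA motifs near the start of its target genes. MT2A and the MT1 genes are induced by metals, glucocorticoids and oxidative stress in many cell types, whereas MT3 is mainly a brain form that responds little to metals.

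The cells were SH-SY5Y, a human neuroblastoma line of noradrenergic origin that takes on neuronal features under differentiation media, all of passage 39 and grown in 15 cm dishes. The dishes received 0, 0.16, 1.26 or 10 µM Pb from day 5 of an 18-day differentiation, with Pb renewed when the medium was changed, and RNA was collected at 5 time points: day 6, day 9, day 12, day 15 and day 18. This gave 20 groups of 3 dishes, 1 dish per library and 60 libraries in all, with the 0 µM dishes as the control of each day. All groups carry the wild-type genotype and come from 1 line, so the p-values measure the spread between dishes.

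Levels were read as counts per 1000000 assigned reads (CPM), and libraries held 16594259 to 50539599 assigned reads. In such libraries 3 reads were worth between 0.0594 and 0.181 CPM, an amount that covers counting error only. Noradrenergic genes were high in every library, with a summed level over 8 markers of 1884 to 14390 CPM, and 5 blood markers summed to at most 1.57 CPM in any library. Most of that sum was CD14, a monocyte marker with a median of 0.658 CPM, while HBB was at 0 in every library. On day 18 the blood sum was 0.672 to 0.768 CPM with 10 µM and 1.34 to 1.57 CPM with 0 µM, and its part in the results was not tested. The library names of day 18 carry another prefix than those of all other days, which was read as a separate pool. Time and pool therefore cannot be told apart where day 18 is set against earlier days. Pb and 0 µM were compared within a day, and hence within a pool. In replicate 1 of day 18 at 0 µM and replicate 3 of day 6 at 10 µM, long transcripts were low relative to the mean of the same day, with slopes of -0.515 and -0.475 (log2 level per log10 of transcript length), against -0.192 for the next lowest library.

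The metallothionein genes lie side by side on chromosome 16, from 56589528 (MT3) to 56684196 (MT1X) in GRCh38.p14, and MTF1 lies on the minus strand of chromosome 1, from 37809574 to 37859592. The promoters of the most abundant member, MT2A, and of MT1X are printed because metal-responsive transcription of this family is known to run through metal response elements. The 250 bases before each start were read from RefSeq (GRCh38.p14, plus strand), at chr16:56608334-56608583 for MT2A and chr16:56682220-56682469 for MT1X, and the element's core was searched as TGCACNC and TGCGCNC on both strands. Matches are in capitals.
MT2A: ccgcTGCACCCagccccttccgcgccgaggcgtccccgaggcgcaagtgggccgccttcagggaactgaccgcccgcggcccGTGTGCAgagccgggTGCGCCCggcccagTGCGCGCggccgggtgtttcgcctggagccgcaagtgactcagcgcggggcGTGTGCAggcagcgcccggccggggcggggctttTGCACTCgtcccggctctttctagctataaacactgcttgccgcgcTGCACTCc
MT1X: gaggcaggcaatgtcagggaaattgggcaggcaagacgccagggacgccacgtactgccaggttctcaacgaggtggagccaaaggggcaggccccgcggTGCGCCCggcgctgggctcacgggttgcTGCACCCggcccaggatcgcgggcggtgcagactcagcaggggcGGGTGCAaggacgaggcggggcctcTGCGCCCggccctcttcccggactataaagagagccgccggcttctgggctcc
MT2A held 7 matches, the nearest ending 2 bases before the start, and MT1X held 4. Of 35116 promoters of the same length, 24.8% held at least 1 match, 0.370% held at least 4 and 0.0313% held at least 7. The MTF1 promoter held none. A match is a description of the letters and does not show that MTF1 binds there. Promoters were at hand for these 3 members, and those of MT1E, MT1F, MT1G, MT1A, MT1M and MT3 were not used here.

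Per length, MT2A was the highest of the readable members, with a mean over the 60 libraries of 23.9 CPM per kilobase of transcript. It was followed by MT1F with 8.07, MT1X with 4.18, MTF1 with 2.51 and MT1E with 1.94 CPM per kilobase. The length is that of the GENCODE transcript chosen for each gene, the longest among equally ranked forms. A shorter expressed form would raise a gene's value, so the order depends on this choice. The genes are close copies of each other, and reads from stretches they share could be assigned to the wrong member. Of the 50-base windows along each chosen transcript, 4.89% in MT2A, 3.59% in MT1F, 10.6% in MT1E and 45.1% in MT1X were also present in a transcript of another gene. These shares depend on the same choice. For MT1X these include an overlapping transcript on the same strand that had no row in the table. MT1X values are therefore the least certain of the 4.

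**Figure D1:**
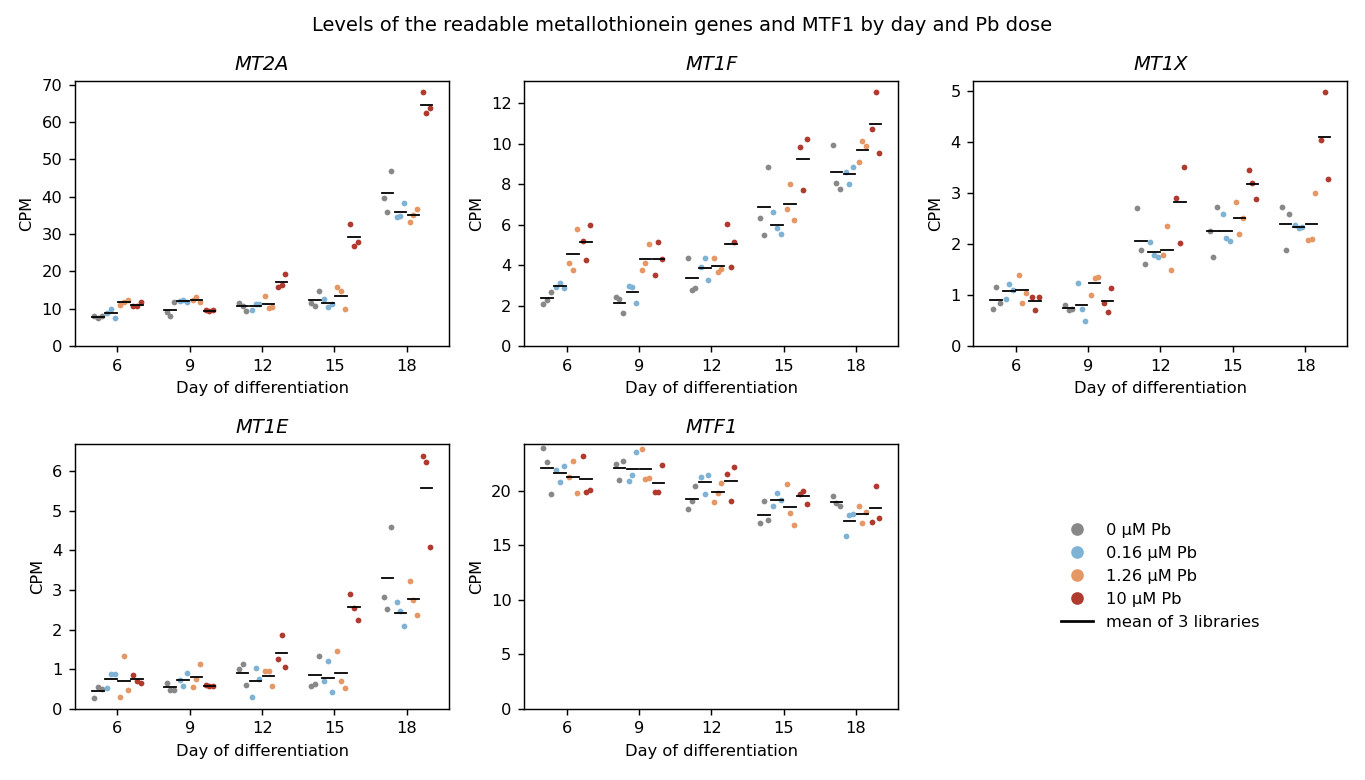
Level in CPM (linear axis from 0) of the 5 readable genes by day of differentiation, with 1 point per library, 4 doses side by side from 0 to 10 µM, and a bar at the mean of 3 libraries. MT2A at 10 µM stands clear of the other doses on days 12, 15 and 18, and MTF1 stays between 15.9 and 23.9 CPM throughout.

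Averaged over the 5 days on the log2(CPM + 1) scale, all 4 readable metallothioneins were higher with 10 µM Pb than with 0 µM. The difference was 0.59 ± 0.055 for MT2A (SE, limma with Benjamini-Hochberg adjustment over 15263 genes, adjusted p = 1.36e-11), 0.56 ± 0.07 for MT1F (adjusted p = 1.62e-08), 0.45 ± 0.088 for MT1E (adjusted p = 0.000159) and 0.27 ± 0.068 for MT1X (adjusted p = 0.00341). MTF1 differed by 0.01 ± 0.035 (adjusted p = 0.93). Thus 4 of 5 readable members rose and 0 fell, where 6.93% of all genes tested rose at this dose, and the median over the 5 members was 0.45 against 0.00 over all genes. Without day 18 the MT1X difference was 0.19 and no longer called (adjusted p = 0.104). On this scale the change of genes near 1 CPM, such as MT1E and MT1X, is understated. With edgeR on the recovered reads all 4 were called as well. In RNA from whole dishes, more RNA per cell and more cells of a type that holds the transcript cannot be told apart.

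MT2A, the main inducible metallothionein, was called at 10 µM from day 12 on and not before. On day 6, 1 day after Pb began, it stood at 10.7, 10.7 and 11.9 CPM in the 10 µM dishes, against 8.01, 7.62 and 8.02 CPM in the 0 µM dishes. The dishes did not overlap, yet the difference of 0.45 ± 0.12 did not pass the test (adjusted p = 0.072). On day 9 it stood at 9.53, 9.29 and 9.74 CPM with 10 µM, inside the span of 9.18, 7.97 and 11.7 CPM with 0 µM, and the difference was 0.00 ± 0.12 (adjusted p = 0.999).
On day 12 the 10 µM dishes had 15.8, 16.5 and 19.4 CPM, against 11.7, 10.7 and 9.44 CPM at 0 µM, a rise of 0.65 ± 0.12 (limma, adjusted p = 0.000501). On day 15 they had 32.8, 26.7 and 27.7 CPM, against 11.6, 10.7 and 14.7 CPM at 0 µM, a rise of 1.18 ± 0.12 (adjusted p = 4.11e-09). The lowest of these 10 µM dishes was well above the highest 0 µM dish. On day 18 the 10 µM dishes had 68.0, 62.4 and 63.6 CPM, against 39.7, 36.0 and 46.9 CPM at 0 µM, a rise of 0.66 ± 0.12 (adjusted p = 5.66e-05), again without overlap.

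MT1F, another of the metal-inducible MT1 genes, was called on days 6 and 9. On day 6 it stood at 5.18, 4.24 and 5.98 CPM with 10 µM, against 2.09, 2.30 and 2.66 CPM with 0 µM, a rise of 0.87 ± 0.16 (limma, adjusted p = 0.00141). On day 9 it stood at 3.52, 5.15 and 4.30 CPM with 10 µM, against 2.44, 2.30 and 1.62 CPM with 0 µM, a rise of 0.77 ± 0.16 (adjusted p = 0.00181). In both cases every 10 µM dish was above every 0 µM dish. MT1F was the only member called on these 2 days at 10 µM, 1 of 5, where 0.295% of all genes rose on day 6 and 0.446% on day 9. When only the libraries of the groups compared were fitted, neither call held (adjusted p = 0.569 on day 6 and 0.12 on day 9).
From day 12 on the MT1F dishes overlapped between doses. The differences at 10 µM were 0.48 ± 0.16 on day 12 (adjusted p = 0.0606), 0.40 ± 0.16 on day 15 (adjusted p = 0.143) and 0.32 ± 0.16 on day 18 (adjusted p = 0.124), and none passed the test. On day 18 MT1F averaged 10.9 ± 1.51 CPM with 10 µM and 8.59 ± 1.16 CPM with 0 µM (SD, n = 3 each).

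MT1E was the scarcest readable member and was called on days 15 and 18. On day 15 it stood at 2.89, 2.54 and 2.24 CPM with 10 µM, against 0.570, 0.633 and 1.32 CPM with 0 µM, a rise of 0.97 ± 0.2 without overlap (limma, adjusted p = 0.000777). On day 18 it stood at 6.38, 6.24 and 4.08 CPM with 10 µM, against 2.82, 2.52 and 4.58 CPM with 0 µM. Replicate 3 with 10 µM lay below replicate 3 with 0 µM there, and the rise of 0.62 ± 0.2 (adjusted p = 0.0143) was the least secure of the calls. It was lost with a pseudocount of 0.25, with edgeR, with only the groups compared, without the 2 libraries low in long transcripts, and in 4 of 6 fits that left out a library (replicates 1 and 2 of either group), with adjusted p-values up to 0.0998. Before day 15 MT1E was below 2 CPM in every library and no difference passed the test.

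Tested day by day, MT1X was called on day 18. On day 18 it stood at 4.04, 4.97 and 3.28 CPM with 10 µM, against 2.73, 1.87 and 2.59 CPM with 0 µM, a rise of 0.58 ± 0.15 without overlap (limma, adjusted p = 0.00315). With only the groups compared the adjusted p was 0.0697. On day 15 the dishes did not overlap either, with 3.45, 3.19 and 2.89 CPM with 10 µM and 2.25, 1.75 and 2.73 CPM with 0 µM, but the difference of 0.37 ± 0.15 did not pass (adjusted p = 0.164). On days 6 and 9 MT1X lay between 0.666 and 1.15 CPM in all dishes with 10 or 0 µM.

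The day 12 call of MT2A was 1 of 5 readable members, where 3.03% of all genes rose at 10 µM. On day 15, 2 of 5 rose (MT2A and MT1E) against 2.5% of all genes, and on day 18, 3 of 5 rose (MT2A, MT1E and MT1X) against 12.1%. Over the 4 metallothioneins and 5 days, the 10 µM and 0 µM dishes did not overlap in 10 of 20 cases, always with 10 µM higher, and 8 of the 20 were called. Pooled over the 5 days, the dishes did not overlap in 22.6% of all gene and day pairs. Pairs without overlap and with 10 µM higher were 11.5% of all pairs. The 10 µM libraries differed from 0 µM in other ways too. The median difference of the 238 kept genes with transcripts under 600 bases was 0.0808, -0.000148, 0.047, -0.128 and -0.202 in time order. By the transcript chosen for each gene, this class holds MT1X (450 bases) but not MT1F (690), MT1E (729) or MT2A (786). The longest of equally ranked forms was chosen, so a shorter expressed form could place these genes in the class. Which form the cells made was not tested. The summed level of 8 mesenchymal or S-type markers, which mark the flat cells found beside the neuroblastic ones in this line, was lower with 10 µM than with 0 µM on all 5 days without overlap. It ran from 47.9 to 64.9 CPM with 10 µM and from 143.9 to 151.9 CPM with 0 µM on day 9, and from 125.1 to 137.2 CPM with 10 µM and from 151.6 to 169.8 CPM with 0 µM on day 15. Of these markers VIM had the highest median over all libraries, 84.2 CPM, against 0.731 CPM for TWIST2 and 0.257 CPM for COL1A2, and PRRX1 had a median of 0 reads. The part of transcript length and of the mesenchymal markers in the result was not tested.

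**Figure D2:**
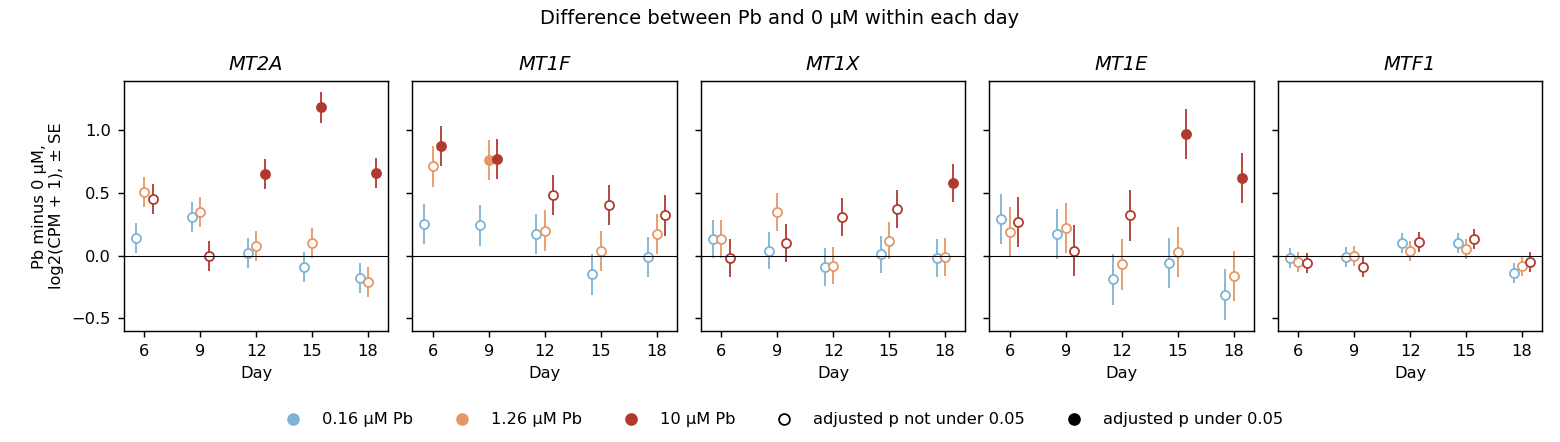
Difference between each Pb dose and 0 µM within each day, on the log2(CPM + 1) scale with the SE of the model, for the 5 readable genes. Filled points passed an adjusted p of 0.05. MT2A at 10 µM runs from 0.00 on day 9 to 1.18 on day 15, MT1F is filled on days 6 and 9, and no point of MTF1 is filled.

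MTF1 showed no detectable Pb difference. Its differences at 10 µM ran from -0.09 ± 0.079 on day 9 to 0.13 ± 0.079 on day 15, and on day 18 it stood at 17.2, 20.5 and 17.5 CPM with 10 µM, against 19.5, 18.8 and 18.6 CPM with 0 µM. The dishes overlapped at 10 µM on all 5 days. These are transcript levels and say nothing of the protein's activity.

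At the lower doses MT1F was the 1 member called over the 5 days. As the mean over days, MT1F was higher by 0.38 ± 0.07 with 1.26 µM (limma, adjusted p = 0.000403), 1 of 5 readable members, where 1.67% of all genes rose. MT2A differed by 0.17 ± 0.055 (adjusted p = 0.0773), which became a call without day 18 (0.26) and after correction for GC content and transcript length (0.20, adjusted p = 0.0104), and in 4 of 30 fits that left out a library (replicate 3 of 0 µM on days 9, 15 and 18 and of 1.26 µM on day 15). MT1X differed by 0.10 ± 0.068, MT1E by 0.04 ± 0.088 and MTF1 by -0.01 ± 0.035. With 0.16 µM, limma called 0 of 5 members, edgeR 0 as well, and none (0) had p under 0.05 before adjustment, where 0.124% of all genes were called. The MT1F difference at that dose was 0.10 ± 0.07.

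Within days, MT1F was highest at the upper doses on day 6, where it averaged 2.35 ± 0.288 CPM at 0 µM, 2.97 ± 0.125 at 0.16 µM, 4.54 ± 1.09 at 1.26 µM and 5.13 ± 0.872 at 10 µM (SD, n = 3 each). The dishes of each Pb dose lay above those of 0 µM, while those of 1.26 and 10 µM overlapped. On day 9 it stood at 3.75, 4.11 and 5.03 CPM with 1.26 µM, against 2.44, 2.30 and 1.62 CPM with 0 µM, a rise of 0.76 ± 0.16 (limma, adjusted p = 0.00612). That was the single member call within a day below 10 µM, where 0.131% of all genes rose. It was lost without replicate 3 of either group, with an adjusted p of up to 0.143, and with only the groups compared (adjusted p = 0.428). On day 6 the difference at 1.26 µM was 0.71 ± 0.16 (adjusted p = 0.126), in a comparison where limma called 0 genes (edgeR 0, and 1254 genes with p under 0.05 before adjustment).
MT2A was also above 0 µM at 1.26 µM on the early days without passing the test. On day 6 it averaged 11.7 ± 0.587 CPM with 1.26 µM and 7.89 ± 0.229 CPM with 0 µM, a difference of 0.51 ± 0.12 (adjusted p = 0.153). On day 18 the order was turned, with 35.1 ± 1.8 CPM at 1.26 µM and 40.9 ± 5.52 CPM at 0 µM, a difference of -0.21 ± 0.12 (adjusted p = 0.277) with overlapping dishes. Over the 25 pairs of gene and day, limma called 0 at 0.16 µM (edgeR 0, and 1 with p under 0.05 before adjustment), 1 at 1.26 µM (5 before adjustment) and 8 at 10 µM (14 before adjustment). In time order, the shares of all genes called were 0%, 0.0131%, 0.0197%, 0.0131% and 6.34% at 0.16 µM. They were 0%, 0.4%, 0.0459%, 1.26% and 12.4% at 1.26 µM, and 0.655%, 1.41%, 5.37%, 5.68% and 28.9% at 10 µM.

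Along the 4 dose steps, which are spaced about equally on a log scale, MT1F rose by 0.20 ± 0.022 per step (limma, adjusted p = 1.23e-09), MT2A by 0.19 ± 0.017 (adjusted p = 7.23e-12), MT1E by 0.14 ± 0.028 (adjusted p = 0.000169) and MT1X by 0.09 ± 0.021 (adjusted p = 0.00189). MTF1 had a slope of 0.00 ± 0.011. Thus 4 of 5 had a rising slope, against 7.26% of all genes. The MT1X slope was not called without day 18 (adjusted p = 0.0569).
The highest dose was then set against the next. Between 10 µM and 1.26 µM, MT2A was higher at 10 µM by 0.42 ± 0.055 (limma, adjusted p = 5.52e-07) and MT1E by 0.40 ± 0.088 (adjusted p = 0.00215), 2 of 5 members, where 2.06% of all genes were higher. The MT1E call was lost with edgeR and without day 18 (adjusted p up to 0.13). MT1F differed by 0.19 ± 0.07 (adjusted p = 0.122) and MT1X by 0.17 ± 0.068 (adjusted p = 0.178), so no further rise of these genes above 1.26 µM was shown. That MT1F rose less than MT2A over this step was not tested.

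The Pb difference of MT2A varied between days. A moderated F test of all 3 Pb doses over the days gave F = 11.4 (limma, adjusted p = 8.32e-08), and that of 10 µM alone F = 11.8 (adjusted p = 4.3e-05). For MT1E the test of all doses gave F = 3.10 (adjusted p = 0.031) and that of 10 µM alone an adjusted p of 0.0712. MT1F (adjusted p = 0.189 over all doses), MT1X (adjusted p = 0.104) and MTF1 (adjusted p = 0.683) did not pass, so the early rise of MT1F is not shown to differ from its later differences. Thus 2 of 5 members passed over all doses, against 11.8% of all genes, and 1 of 5 at 10 µM, against 21.7%. The MT1E result was lost with a pseudocount of 0.25, with no filter, with edgeR, without day 18 (adjusted p up to 0.136), and in 7 of 60 fits that left out a library, all of them 10 µM dishes of days 9, 15 and 18.

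The balance of MT2A and MT1F within a library shifted with day and dose. On day 6 the log2 ratio of MT2A to MT1F was 1.05, 1.34 and 0.99 with 10 µM, against 1.94, 1.73 and 1.59 with 0 µM, and on day 9 it was 1.44, 0.85 and 1.18 with 10 µM, against 1.91, 1.79 and 2.85 with 0 µM. On both days all 10 µM dishes were below all 0 µM dishes. On day 15 the order was turned, with 1.74, 1.79 and 1.44 at 10 µM, against 0.88, 0.97 and 0.73 at 0 µM. On days 12 and 18 the dishes overlapped. These ratios carry no test. The log2 ratio of MT1E to MT2A had means between -4.36 and -3.51 in the 20 groups.

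**Figure D3:**
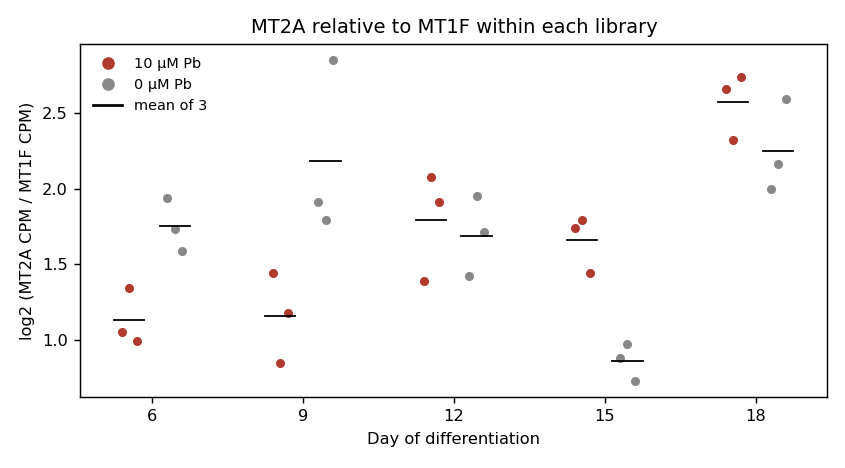
Log2 ratio of MT2A to MT1F in CPM by day, with 1 point per library, 10 µM Pb to the left of 0 µM, and a bar at the mean of 3. The 10 µM dishes lie below the 0 µM dishes on days 6 and 9 and above them on day 15.

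Without Pb, MT2A, MT1F and MT1X rose by day 15, within 1 pool, while in the main limma fit MT1E was called only on day 18, in the other pool. MT2A stood at 39.7, 36.0 and 46.9 CPM on day 18, against 8.01, 7.62 and 8.02 CPM on day 6, a rise of 2.23 ± 0.12 (limma, adjusted p = 8.66e-21). Its rise was 0.38 ± 0.12 by day 12 (adjusted p = 0.00778) and 0.58 ± 0.12 by day 15 (adjusted p = 9.07e-05), so that most of the increase came between day 15 and day 18, across the change of pool. The day 12 call was lost without replicate 1 of day 12 (adjusted p = 0.0523).
MT1F stood at 9.92, 8.07 and 7.77 CPM on day 18, against 2.09, 2.30 and 2.66 CPM on day 6, a rise of 1.51 ± 0.16 (adjusted p = 9.47e-12). It had already risen by 1.21 ± 0.16 on day 15 (adjusted p = 5.1e-09), within 1 pool. MT1X was up by day 12, with 2.70, 1.88 and 1.60 CPM there, against 0.729, 1.15 and 0.839 CPM on day 6, a rise of 0.67 ± 0.15 (adjusted p = 0.000188), and its rise was 0.76 ± 0.15 on day 15 and 0.83 ± 0.15 on day 18. MT1E rose by 1.55 ± 0.2 on day 18 (adjusted p = 2.5e-09), while its differences of 0.40 ± 0.2 on day 12 and 0.33 ± 0.2 on day 15 did not pass. The day 12 difference of MT1E became a call with edgeR (1.12, adjusted p = 0.0333) and with a pseudocount of 0.25. It was also called in 1 of 6 fits that left out a library. The day 15 difference was called in no alternative. Over the same time the summed level of 6 keratinocyte and epithelial markers was 55.7 to 89.8 CPM in the libraries of day 18 and 22.5 to 30.6 CPM in those of day 6, with KRT1 at 0 in every library. The sum was carried by KRT10 up to day 15, and KRT5 and KRT14, keratins of basal epithelial cells, joined it on day 18. At 0 µM KRT5 stood at 30.6, 28.7 and 44.0 CPM on day 18, against 0.546, 0.605 and 0.292 CPM on day 6 and 0.651, 0.535 and 0.642 CPM on day 15. KRT14 averaged 19.0 CPM on day 18 and 0.248 CPM on day 15. The part of these markers in the day 18 differences was not tested. On day 18 the sum was 65.6 to 72.2 CPM with 10 µM and 61.7 to 89.8 CPM with 0 µM.
MTF1 was lower at later days, with differences of -0.18 ± 0.079 on day 12 (adjusted p = 0.0445), -0.29 ± 0.079 on day 15 (adjusted p = 0.00148) and -0.20 ± 0.079 on day 18 (adjusted p = 0.021). After rescaling of the libraries, which moved the median of all genes on day 12 by 0.100, the calls of days 12 and 18 did not hold. After correction for GC content and length none of the 3 held, and the day 18 difference was 0.02. The day 12 call of MTF1 was lost in 5 of 9 alternatives, edgeR among them, and in 4 of 6 fits that left out a library. Its day 18 call was also lost with only the groups compared and in 3 of 6 fits that left out a library. On day 9 limma called 0 of 5 members (edgeR 0, and 0 with p under 0.05 before adjustment), where 5.14% of all genes were called. On day 12, 3 of 5 rose and 1 fell, against 21.6% of all genes higher and 34.6% lower. On day 15 the counts were again 3 and 1, against 26.2% and 32.2%, and on day 18 they were 4 and 1, against 32.1% and 34.7%. The MT1F difference on day 12, 0.36 ± 0.16 (adjusted p = 0.0471), was lost in 4 of 9 alternatives and in 3 of 6 fits that left out a library.

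Ordered by mean level over the 20 groups, MT2A was highest with 10 µM on day 18, at 64.7 ± 2.9 CPM. The other 3 groups of day 18 followed at 35.1 to 40.9 CPM, and their dishes overlapped. Next came 10 µM on day 15 at 29.1 ± 3.27 CPM and 10 µM on day 12 at 17.2 ± 1.9 CPM, each apart from its neighbours. The remaining 14 groups ran from 7.89 to 13.5 CPM, and each overlapped the next. Of 19 neighbouring pairs of groups, 15 overlapped for MT2A, 19 for MT1F, 18 for MT1X, 18 for MT1E and 19 for MTF1.

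MT1G, MT1A, MT1M and MT3 never reached 1 CPM and were not tested. MT1G had a median of 2 reads per library and at most 18, MT1A a median of 3 and at most 16, MT1M a median of 1.5 and at most 17, and MT3 a median of 0 and at most 12. They had no read in 16, 16, 19 and 39 of the 60 libraries, in that order. A level that gives 3 reads on average can give 0 reads in a library by counting error.
Pooled over the 15 libraries of each dose, MT1G had 20 reads at 0 µM, 40 at 0.16 µM, 39 at 1.26 µM and 103 at 10 µM. MT1A had 64, 59, 57 and 42 reads, MT1M 20, 52, 33 and 56, and MT3 9, 27, 18 and 21 at the same doses. MT1G on day 18 stood at 0.404, 0.560 and 0.570 CPM with 10 µM, against 0.0273, 0.238 and 0.181 CPM with 0 µM, and on day 15 at 0.441, 0.261 and 0.505 CPM with 10 µM, against 0.109, 0 and 0 CPM with 0 µM. All 10 µM dishes were above the 0 µM dishes on both days, at levels where 20.2% of the transcript's 50-base windows are shared with other metallothionein transcripts. Reads of MT2A or MT1X placed on MT1G were not tested as a source.
MT3, the brain form, had most of its reads on the last day, with 0, 2, 10, 12 and 51 reads over the 12 libraries of days 6, 9, 12, 15 and 18. MT1A ran the same way over days, with 8, 12, 48, 61 and 93 reads. Of the other metallothionein genes and pseudogenes in the table, MT1B, MT1L and MT4 had 0 reads in all libraries, and MT1H, MT1HL1, MT1DP and MT1JP had at most 5 reads in any library.

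**Figure D4:**
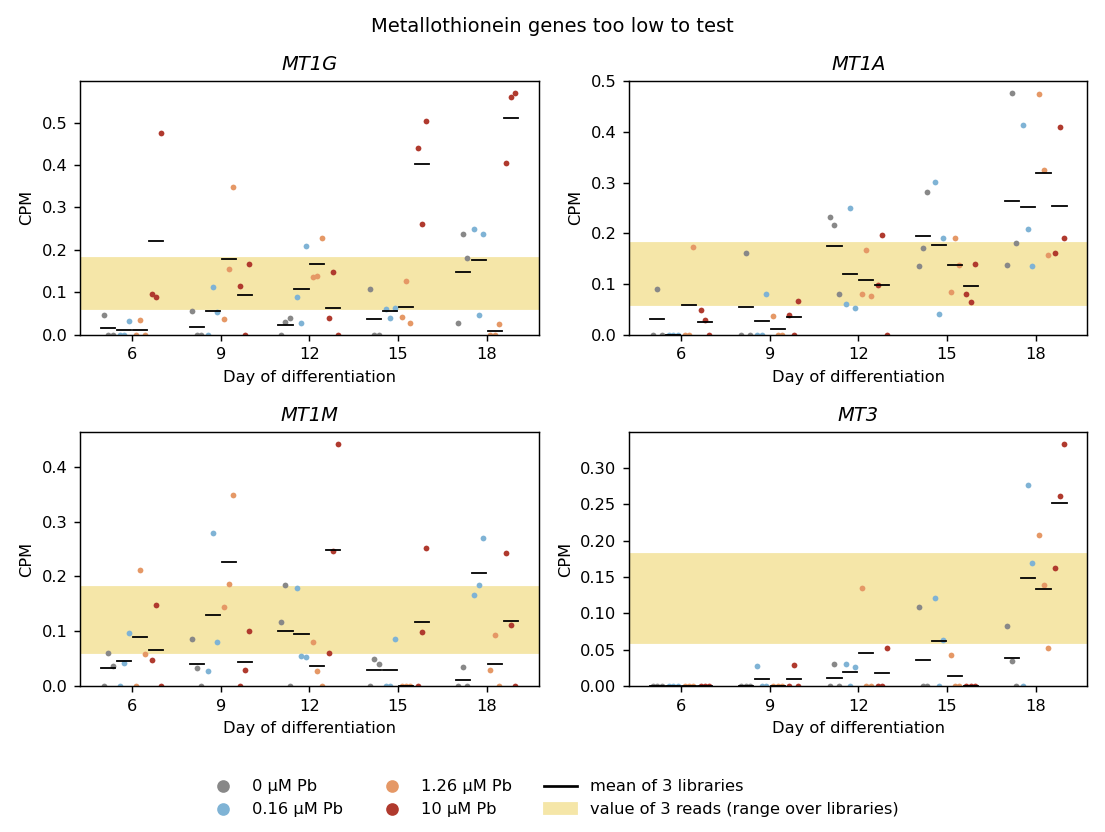
Level in CPM of the 4 members that were too low to test, with 1 point per library, 4 doses side by side within each day and a bar at the mean of 3 libraries. The yellow band is the value of 3 reads, 0.0594 to 0.181 CPM depending on the library, and most points lie in or below it.

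Beside the members, a list of other genes regulated by MTF1 or induced by metals was read. Of 10 such genes 9 were testable (SLC30A2 was too low). With 10 µM limma called 1 of 9 higher over the 5 days, against 6.93% of all genes, and 0 lower, against 8.13%. edgeR called 2, SLC30A1 and HMOX1, and the median of the 9 was 0.04 against 0.00 over all genes. The 1 that rose was SLC30A1, the zinc exporter of the plasma membrane and a known MTF1 target, by 0.37 ± 0.12 (limma, adjusted p = 0.0191). On day 18 SLC30A1 stood at 14.6, 13.8 and 11.8 CPM with 10 µM, against 5.99, 5.24 and 8.80 CPM with 0 µM. This was a rise of 0.93 ± 0.26 without overlap (adjusted p = 0.00534, where 12.1% of all genes rose). The mean over days was not called without day 18 (0.24, adjusted p = 0.308) or without replicate 1 of day 6 at 10 µM (adjusted p = 0.0524). Unlike the metallothioneins, SLC30A1 fell during differentiation without Pb, by 1.71 on the log2 scale on day 18 against day 6 (SE 0.26, adjusted p = 1.48e-07).
HMOX1, the heme oxygenase that oxidative stress and several metals induce, was called as the mean over the 5 days at the lower doses. The mean difference was 0.45 ± 0.072 at 0.16 µM (limma, adjusted p = 0.000596, where 0.059% of all genes rose) and 0.45 ± 0.072 at 1.26 µM (adjusted p = 5.69e-05, where 1.67% rose). At 10 µM the HMOX1 difference over the 5 days was 0.16 ± 0.072 (adjusted p = 0.149). HMOX1 was called on day 9 at that dose, with a rise of 0.79 ± 0.16 (adjusted p = 0.00211, where 0.446% of all genes rose). On that day HMOX1 averaged 1.40, 8.03, 7.06 and 3.17 CPM at 0, 0.16, 1.26 and 10 µM. The lower doses stood furthest above 0 µM on day 9. On days 12, 15 and 18 HMOX1 averaged 6.52, 6.52 and 8.23 CPM at 0 µM. At 0.16 µM it averaged 7.20, 5.80 and 8.46 CPM on those days, and at 1.26 µM 8.05, 5.95 and 7.73 CPM. At 1.26 µM a second gene of the list, the growth factor PGF, was higher by 0.12 ± 0.036 (limma, adjusted p = 0.0443), a call lost in 17 of 30 fits that left out a library. SLC30A1 differed there by 0.37 ± 0.12 (limma, adjusted p = 0.0612), and edgeR called SLC30A1 and not PGF. For the dose slope limma called 2 of 9, against 7.26% of all genes. These were SLC30A1 (0.13 ± 0.036, adjusted p = 0.00973) and PGF (0.04 ± 0.012, adjusted p = 0.0107). Both slopes were lost without day 18 and over the dose in µM. The other testable genes of this list (GCLC, SELENOW, SELENOH, SLC39A10, SLC40A1 and SLC30A10) had differences between -0.13 and 0.10 at 10 µM, none called.

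Genes of copper handling had no call over the 5 days. Of 9 such genes (ATOX1, CCS, COX17, ATP7A, ATP7B, SLC31A1, SLC31A2, SCO1 and SCO2), limma and edgeR each called 0 at 0.16, 1.26 and 10 µM, where 0.124%, 3.84% and 15.1% of all genes were called, and 1, 2 and 0 had p under 0.05 before adjustment. On day 18 with 10 µM, ATP7A, a copper exporter, was higher by 0.82 ± 0.2 (adjusted p = 0.00182), while the copper chaperone CCS fell by 0.32 (SE 0.11, adjusted p = 0.0216) and the copper importer SLC31A1 by 0.19 (SE 0.05, adjusted p = 0.00341), 1 of 9 higher against 12.1% of all genes and 2 of 9 lower against 16.9%.

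**Figure D5:**
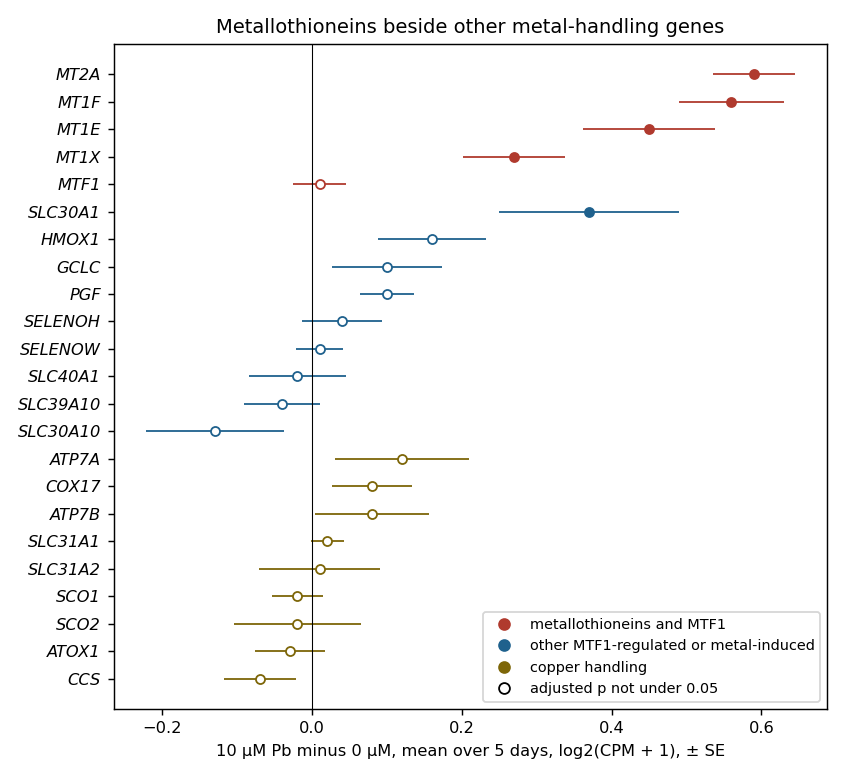
Difference between 10 µM Pb and 0 µM as the mean over 5 days, on the log2(CPM + 1) scale with the SE of the model, for the readable metallothioneins and MTF1, for 9 other genes regulated by MTF1 or induced by metals, and for 9 copper-handling genes. Filled points passed an adjusted p of 0.05, namely the 4 metallothioneins and SLC30A1.

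Over the 20 group means, MT2A and MT1E ran almost in parallel (Pearson r = 0.99 on the log2 scale), MT2A with MT1F at 0.85, MT2A with MT1X at 0.74 and MT1F with MT1X at 0.81. MTF1 ran against them, with r from -0.82 to -0.63. These values describe groups that share days and libraries, and they carry no test. Among the genes kept other than MTF1 and the metallothioneins, those most like MT2A over the 20 groups were LMBRD1 (r = 0.94) and MTND2P28 (r = 0.935). Those most like MT1F were GET1 (r = 0.946) and ZBTB18 (r = 0.938), and those most like MT1X were FAM177A1 and LOC101927178 (r = 0.962 each). FAM177A1 and LOC101927178 had the same lowest, median and highest level (53.7, 80.8 and 120 CPM), so they may not be separate matches.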

How the data were processed

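Expression was measured by RNA-seq (PlexWell) in 60 libraries. The authors deposited CPM per gene; tools in the submitters' processing notes are STAR, featureCounts, FastQC and MultiQC with build GRCh38, without versions. Annotation, strand setting and the handling of reads that match several genes are not given in the sources used here. Of the values, 100% were whole multiples of 1 read within 0.01 read, so reads were recovered.

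The filter kept 15263 genes that reached 1 CPM in 3 or more libraries. With limma 3.58.1 (R 4.3.3, trended prior), 20 group means were fitted to log2(CPM + 1) over the 60 libraries, which left 40 residual degrees of freedom. P-values were two-sided and Benjamini-Hochberg adjusted over all genes kept, with a threshold of 0.05. Errors of differences are SEs of the model, those of CPM are SDs. edgeR 4.0.16 (quasi-likelihood, TMM) on the recovered reads was an alternative: it called 2169 genes for 10 µM over days, against 2298 by limma. The others were a pseudocount of 0.25, no filter, median-ratio scaling, only the groups compared, a replicate block, leaving out day 18, each library or the 2 libraries low in long transcripts, a slope over the dose in µM, and a correction for GC content and length from GENCODE 29. No 2 libraries were duplicates. The fits were tested on simulated data.

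Members, gene lists, tests and naming rule were chosen with earlier results of these data known. All 9 members are named, and other genes as members of the lists or as the most alike.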

Additional observations from a re-analysis of the deposited data

Results flagged for a closer look

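The Pb difference of MT2A varied between days, by a test of the difference itself: limma's moderated F test gave an adjusted p of 8.32e-08 for all doses and of 4.3e-05 for 10 µM alone. At 10 µM the MT2A difference was 0.45, 0.00, 0.65, 1.18 and 0.66 on day 6, day 9, day 12, day 15 and day 18. Over the alternatives the adjusted p stayed at or below 1.26e-05 for all doses and at or below 0.000575 for 10 µM alone. For MT1E the same test of all doses gave an adjusted p of 0.031, with differences at 10 µM of 0.27, 0.04, 0.32, 0.97 and 0.62 over the days, and this result did not hold in 4 of 8 alternatives.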

How the results depend on the processing

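With 10 µM, the count of 4 members called as the mean over days was 3 without day 18 and 5 with no filter (MT1G added), and 4 in every other alternative and in every fit that left out a library. At 1.26 µM the count of 1 was 2 without day 18 and 2 after GC and length correction, and at 0.16 µM it was 0 throughout. The 9 calls within days were 4 when only the groups compared were fitted, 6 without day 18, 12 with no filter and 13 after GC and length correction. The 2 calls of 10 µM against 1.26 µM were 1 with edgeR, 1 without day 18 and 3 with no filter. The 13 calls in differentiation were 7 without day 18, which leaves fewer days to test, and 9 to 14 in the other alternatives. The 2 calls for Pb by day were 1 with a pseudocount of 0.25, 1 with edgeR, 1 without day 18 and 3 after GC and length correction. Apart from the fewer days, the cause of these shifts was not tested. Leaving out each library gave counts of 0 to 0 at 0.16 µM, 1 to 2 at 1.26 µM, 4 to 4 at 10 µM, 4 to 4 for the dose slope, 8 to 11 within days, 2 to 2 for 10 µM against 1.26 µM, 10 to 14 in differentiation and 1 to 2 for Pb by day. With the replicate number as a block these counts were 0, 1, 4, 4, 9, 2, 13 and 2 in the same order, as without it; same-numbered libraries of a day correlated at a mean of 0.028 (-0.356 to 0.532), and 26 of 60 libraries matched their own number best, so the numbers were not taken as pairs. Among the single results, directions turned for differences that were not called, and for MTF1 on day 18 against day 6 (0.02 after GC and length correction). MT1E at 0.16 µM was 0.01 with a pseudocount of 0.25, 0.03 with edgeR, 0.05 without day 18 and -0.05 to 0.02 in fits without a library, against -0.02. In fits without a library, MT1X at 0.16 µM was -0.02 to 0.04, MTF1 -0.01 to 0.02 at 0.16 and at 10 µM, MT1E -0.01 to 0.08 at 1.26 µM and MT1F -0.18 to 0.01 on day 9 against day 6. MTF1 was also -0.03 at 0.16 µM after GC and length correction and 0.01 at 1.26 µM without day 18. Of 2021 alternative values for 63 single results, 1912 kept their direction and side of the threshold. The slope and the test of all doses by day use every group, so no fit of fewer groups was run for them, and DESeq2 was not run. Depth limits MT1G, MT1A, MT1M and MT3, whose reads are too few to test.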

Other observations

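With no filter on low values, limma also gave results for the members that were too low to read. MT1G was then called at 10 µM as the mean over days (0.25, adjusted p = 7.9e-06), with adjusted p = 0.00131 on day 15 and 0.000838 on day 18, and MT3 on day 18 with 10 µM (0.27, adjusted p = 0.000231). These rest on at most 18 reads of MT1G and 12 reads of MT3 in any library. The summed level of the 8 metallothioneins was 44.7 ± 4.51 CPM with 10 µM and 22.6 ± 4.72 CPM with 0 µM on day 15, and 86.4 ± 4.33 CPM with 10 µM and 55.6 ± 6.46 CPM with 0 µM on day 18 (SD, n = 3 each).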
